A study of Mus musculus with 8 samples.

Results

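The odorant receptor genes numbered Olfr826 to Olfr985 lie in a pair of clusters on mouse chromosome 9. They were taken as every row of the expression table that carries a single gene symbol in this number range, with a pseudogene suffix allowed. The rule found 110 genes, out of 1034 odorant receptor rows with 1 symbol and 35557 rows in all. The reference annotation (RefSeq, GRCm38.p6) held all 110. It placed 108 of them on chromosome 9 and the other 2, Olfr826 and Olfr827, on chromosome 10, so the chromosome label does not hold for that pair. On chromosome 9, 31 genes formed a proximal cluster and 77 a distal cluster, separated by a gap of more than 5 Mb. The reference called 106 of the 110 protein coding, 3 transcribed pseudogenes and 1 a miscellaneous RNA. It lists 153 genes with symbols in this range on chromosome 9, so some of them have no row of their own and are not counted.

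The samples were olfactory mucosae of mice on a mixed 129 x C57BL/6J background at postnatal day 1, 1 Affymetrix Mouse Gene 1.0 ST array for each. The 4 Emx2 knockouts were 123Cre:Emx2(fl/fl), which carry Cre and floxed alleles on both chromosomes. The 4 littermate controls were 2 samples of 123Cre:Emx2(fl/+), with Cre and a single floxed allele, and 2 samples of Emx2(fl/fl), without Cre. In 123Cre mice, Cre is expressed from the immature olfactory sensory neuron (OSN) stage onward and reaches only some of the OSNs, so cells with intact Emx2 remain in the knockout tissue. Per the study's methods, the litters that gave knockouts also gave controls, but the labels do not tie a sample to a litter. They do not say whether a sample is 1 animal or a pool, so p-values cover only the spread among the arrays, which may be technical.

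Odorant receptors (ORs) are G-protein-coupled receptors on the cilia of OSNs, and each OSN expresses 1 allele of 1 OR gene. The mRNA level of an OR in whole mucosa therefore reflects both how many OSNs chose that gene and how much mRNA each of them holds, and fewer cells of a type and less RNA per cell cannot be told apart in these samples. OR promoters and enhancers are rich in homeodomain sites, which the LIM homeodomain factor Lhx2 and the homeodomain factor Emx2 can bind, and in sites for the Ebf factors. The comparison of knockouts with controls asks whether loss of Emx2 in OSNs changes the mRNA levels of these receptors.

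The sequences shown are the 250 bases upstream of the annotated start of 5 genes that the results turn on. They are Olfr944, which stood higher in the knockouts, its neighbours Olfr1537 (also called K4, and outside the number range) and Olfr945, and the only members, Olfr901 and Olfr830, that were lower at an unadjusted p below 0.01. Each is written 5′ to 3′ on the strand of its gene, from RefSeq on GRCm38.p6. Capitals mark the homeodomain-type motifs TAATTA and TAATTG, found on either strand, so that TAATTG on the other strand reads CAATTA. The windows are chr9:39217109-39217358 (plus strand) for Olfr944, chr9:39238432-39238681 (minus) for Olfr1537, chr9:39258680-39258929 (minus) for Olfr945, chr9:38430034-38430283 (plus) for Olfr901 and chr9:18875079-18875328 (plus) for Olfr830.
Olfr944: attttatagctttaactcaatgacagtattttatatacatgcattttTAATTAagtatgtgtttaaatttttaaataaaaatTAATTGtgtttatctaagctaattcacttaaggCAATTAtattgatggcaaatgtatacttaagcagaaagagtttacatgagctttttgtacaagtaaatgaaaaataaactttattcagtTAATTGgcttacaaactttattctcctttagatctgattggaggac
Olfr1537: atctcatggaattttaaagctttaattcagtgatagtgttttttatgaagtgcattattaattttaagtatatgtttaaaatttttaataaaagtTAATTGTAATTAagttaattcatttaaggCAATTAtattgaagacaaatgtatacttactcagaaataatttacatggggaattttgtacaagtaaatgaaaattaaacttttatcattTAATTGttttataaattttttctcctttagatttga
Olfr945: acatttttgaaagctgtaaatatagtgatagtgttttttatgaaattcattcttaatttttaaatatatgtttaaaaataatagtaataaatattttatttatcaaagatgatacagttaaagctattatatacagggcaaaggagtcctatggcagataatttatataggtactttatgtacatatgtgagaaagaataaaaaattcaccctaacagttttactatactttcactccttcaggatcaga
Olfr901: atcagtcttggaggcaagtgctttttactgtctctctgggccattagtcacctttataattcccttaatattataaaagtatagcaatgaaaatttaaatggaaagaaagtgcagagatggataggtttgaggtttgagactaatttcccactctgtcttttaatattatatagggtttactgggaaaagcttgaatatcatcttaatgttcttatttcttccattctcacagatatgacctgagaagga
Olfr830: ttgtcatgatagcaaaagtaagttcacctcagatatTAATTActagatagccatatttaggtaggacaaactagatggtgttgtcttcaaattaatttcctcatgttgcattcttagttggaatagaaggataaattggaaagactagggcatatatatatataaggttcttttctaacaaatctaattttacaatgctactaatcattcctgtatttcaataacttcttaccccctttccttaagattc
In all 5 genes the annotated start is an ATG, so the window lies before the coding sequence and need not be the promoter, since many OR genes have noncoding exons further upstream. The windows of Olfr944 and Olfr1537 each held 1 TAATTA and 3 TAATTG. Those of Olfr945 and Olfr901 held neither, and that of Olfr830 held 1 TAATTA. Aligned with each other, the windows of Olfr944 and Olfr1537 were 76.1% identical, which ranked 7 of 4371 pairs among the 94 windows compared, and the median pair was 49.1% identical. Olfr1537 and Olfr945 were 68.6% identical and Olfr944 and Olfr945 63.7%.

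Across the clusters these motifs were common. Of the 93 members with a window, 23.7% held TAATTA and 20.4% held TAATTG, against 17.5% and 22.8% of the windows of 851 other OR genes and 4.9% and 7.34% of all 27025 windows. These motifs can overlap, and at least one of the pair stood in 34 of the 93 member windows, or 36.6%, against 36.7% of other OR windows and 11.5% of all windows. An Ebf-type motif, CCCNNGGG, which reads alike on both strands, stood in 1.08% of member windows, 2.94% of other OR windows and 11.7% of all windows. The median GC content of the member windows was 33.2%. Members whose window held a homeodomain-type motif had a median log2 difference between knockouts and controls of −0.25, and the 59 whose window held none had −0.23 (−0.07 and −0.09 without knockout 2). A match is a description of the letters, and 62 of the 93 members had an annotated start at an ATG.

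Emx2 itself, the deleted gene, had log2 values of 9.80, 9.86, 10.01 and 9.93 in knockouts 1 to 4, against 10.80, 10.86, 11.00 and 10.72 in controls 1 to 4, without overlap (difference −0.94, adjusted p = 0.0014 by limma over 23410 rows). For Omp, which mature OSNs express, the difference was −0.06. The mean over 23 mature OSN genes was 11.46 ± 0.0576 in knockouts and 11.58 ± 0.0509 in controls (SD, n = 4 each), a difference of −0.12. Knockout 2 stood apart from the other arrays, with a mean correlation of 0.978 with them against 0.987 to 0.990 for each of the others, and its removal moves many of the values given here.

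Nearly all of the 110 members had lower mean values in the knockouts with all samples, by small amounts, and none passed the test after adjustment. Of the 110 genes, 99 (90%) had a difference below 0 and 11 above 0. The median log2 difference was −0.23, with quartiles of −0.37 and −0.10 and a range from −0.82 (Olfr945) to 0.46 (Olfr944). Over the 924 other OR rows, 696 (75.3%) were below 0 and the median was −0.18. Over all rows tested, 48.4% were below 0 and the median was 0.0041. With knockout 2 left out, 72 of the 110 members were below 0 and their median was −0.08.

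The number of members that passed a test was small beside this common shift. With limma and adjustment over all rows, 0 members had an adjusted p below 0.05, against 0.359% of all rows. At an unadjusted p below 0.01, 2 members (1.82%) were lower and 0 were higher, against 1.3% and 0.436% of all rows and 4.22% and 0.866% of the other OR rows. At an unadjusted p below 0.05, 10 (9.09%) were lower and 1 was higher, against 3.06% and 3.04% of all rows and 14.1% and 2.49% of the other OR rows. For 4 members (3.64%), all knockout values lay below all control values, and for 0 members above them, against 2.54% and 1.98% of all rows and 5.52% and 1.52% of the other OR rows. Without knockout 2, 7 members were lower and 4 higher at an unadjusted p below 0.05, against 4.85% and 5.14% of all rows. With all samples, the shares of lower members were below those of the other OR rows under each of these rules, while the share with a difference below 0 was higher. The difference between members and other OR rows was not tested.

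The mean over members differed more among the knockouts than between the groups. It stood at log2 values of 6.94, 6.62, 7.39 and 7.45 in knockouts 1 to 4, against 7.31, 7.03, 7.45 and 7.52 in controls 1 to 4. Knockouts 1 and 2 and control 2 were the 3 lowest, and knockouts 3 and 4 lay within the range of the controls. Group means were 7.10 ± 0.393 in knockouts and 7.33 ± 0.216 in controls (SD, n = 4 each), a difference of −0.23, which is smaller than the SD of the knockouts. Knockout 2 held the lowest of the 8 values for 87 of the 110 genes and knockout 1 for 15. Controls 4 and 3 held the highest value for 33 and 29 genes, and knockout 4 for 20. Without knockout 2, the median difference over members was −0.08, with 72 of the 110 genes below 0, and over the other OR rows it was −0.06, with 540 of 924 below 0.

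**Figure D1:**
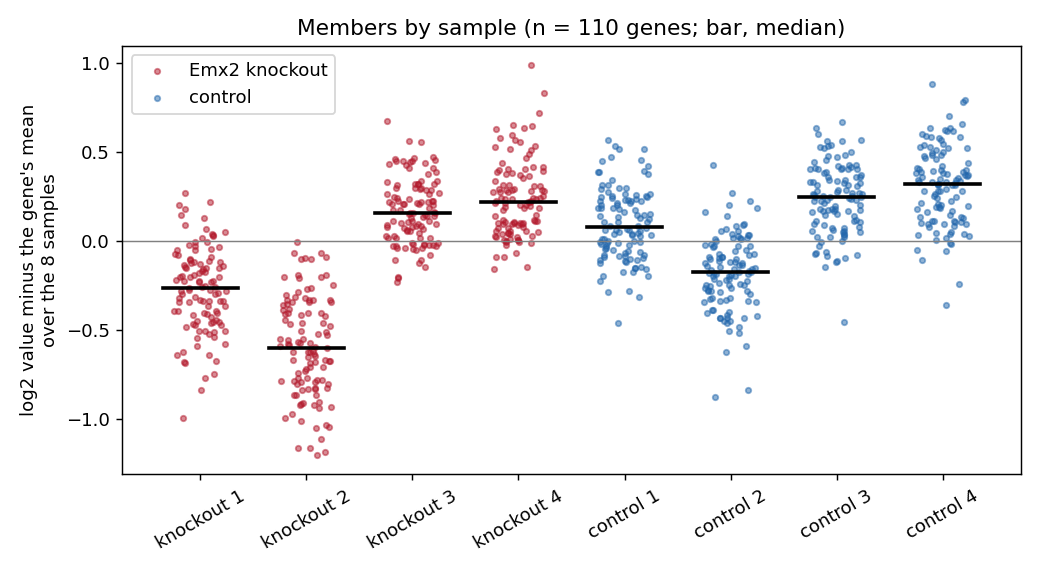
Each point is 1 of the 110 genes, plotted for each array as its log2 value minus that gene's mean over the 8 samples, with the median of the genes as a bar; knockouts are at the left and controls at the right. Medians were −0.26, −0.60, 0.16 and 0.22 in knockouts 1 to 4 and 0.08, −0.18, 0.25 and 0.32 in controls 1 to 4, so that knockouts 3 and 4 lie above the mean and control 2 below it.

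The labels number the arrays, and the mean over members was lower on each of arrays 1 to 4 (knockouts 1 and 2, controls 1 and 2) than on any of arrays 5 to 8 (knockouts 3 and 4, controls 3 and 4). Within arrays 1 to 4, knockouts and controls differed by a median of −0.39, with 102 genes below 0, and within arrays 5 to 8 by −0.05, with 71 below 0. Over the other OR rows the medians were −0.26 and −0.08. The direction was thus kept in both sets but its size was not, and 69 genes were below 0 in both sets and 6 above 0 in both. The means over the 23 mature OSN genes were 11.48, 11.41, 11.42 and 11.53 in knockouts 1 to 4 and 11.56, 11.53, 11.63 and 11.62 in controls 1 to 4. They followed this split within the controls but not within the knockouts. The source of the split was not tested. The labels do not call the array numbers a batch.

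**Figure D2:**
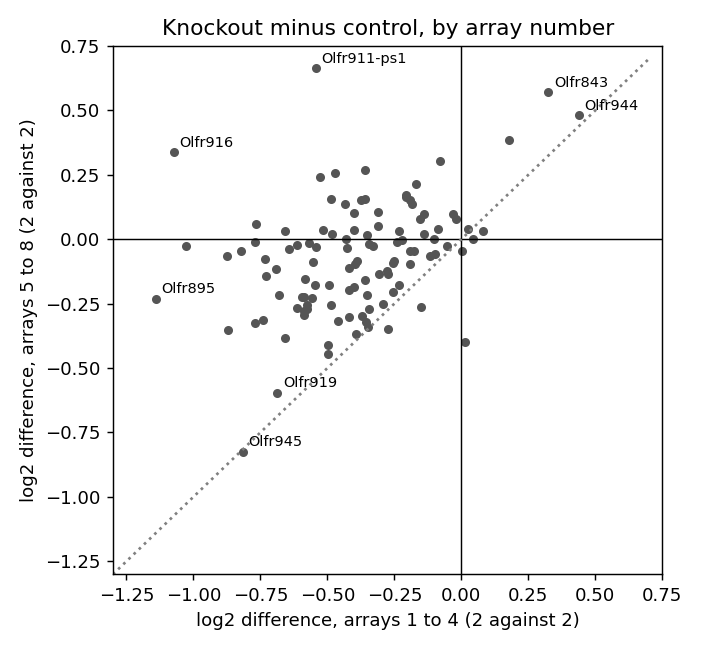
Each point is 1 of the 110 genes, with the log2 difference between knockouts and controls in arrays 1 to 4 on the horizontal axis and in arrays 5 to 8 on the vertical axis, 2 knockouts against 2 controls in each; the dotted line marks equal differences. Olfr945 (−0.81 and −0.82) and Olfr944 (0.44 and 0.48) lie close to the line, Olfr916 (−1.07 and 0.34) and Olfr911-ps1 (−0.54 and 0.66) far from it.

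The proximal and distal clusters gave like values. Of the 31 proximal genes, 27 were below 0, with a median of −0.22 (−0.07 without knockout 2). Of the 77 distal genes, 70 were below 0, with a median of −0.23 (−0.08 without knockout 2). At an unadjusted p below 0.05, 4 proximal genes (12.9%) and 6 distal genes (7.79%) were lower, against 3.06% of all rows and 14.1% of the other OR rows. The 2 genes on chromosome 10, Olfr826 and Olfr827, differed by −0.32 and −0.37, and by −0.11 and −0.12 without knockout 2. Genes with a mean level above 7.475, under which the dimmest 30% of all rows lie, had a median difference of −0.34 (47 genes), and the 63 dimmer genes −0.17. Without knockout 2 these medians were −0.12 and −0.04.

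**Figure D3:**
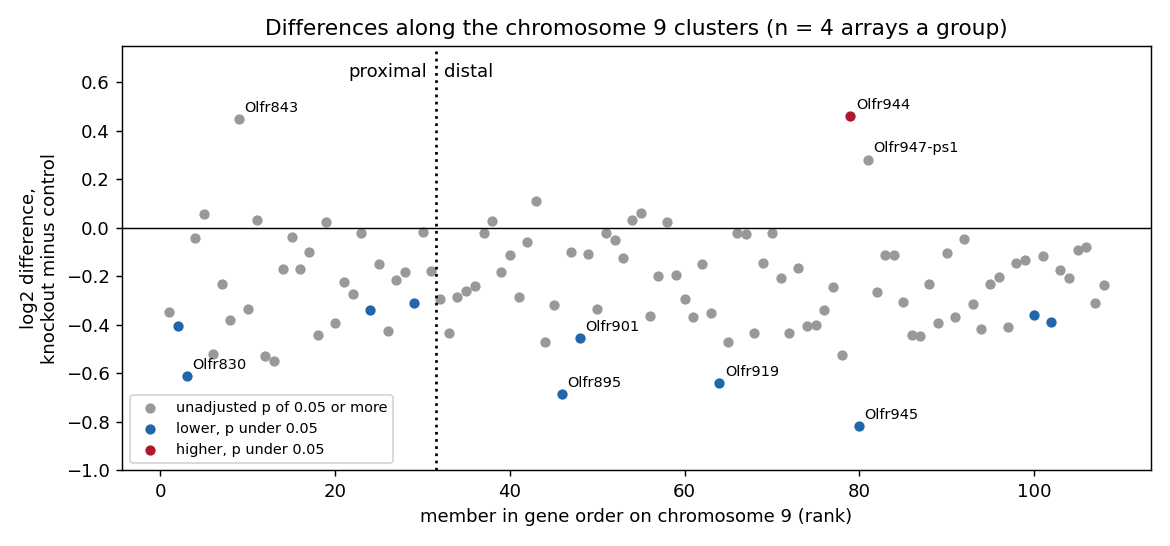
Log2 difference, knockout minus control, of the 108 members on chromosome 9 in gene order (rank, not distance), with the dotted line between the 31 proximal and 77 distal genes; colour marks genes with an unadjusted p under 0.05. Points lie mostly between 0 and −0.5 along the whole order, with Olfr944 and Olfr843 above 0.4 and Olfr945 at −0.82.

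Grouped by receptor family, as the MOR names among the reference's synonyms give it, the members belonged to 28 families, and each of the 8 families with at least 5 members had a median below 0, as did 5 of them without knockout 2. The largest, MOR171 with 26 genes in the distal cluster, had a median of −0.25 (−0.10 without knockout 2), with 24 genes below 0 and the whole range of the members, from −0.82 to 0.46, within it. All 8 genes of MOR224 were below 0, with a median of −0.30, which was −0.22 without knockout 2. In MOR162 (8 genes, median −0.09), MOR165 (9 genes, −0.13) and MOR145 (5 genes, −0.22) the medians without knockout 2 were 0.02, 0.05 and 0.0097. No family was tested as a set.

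Olfr901 and Olfr830 were lower at an unadjusted p below 0.01. Olfr901, a distal receptor, had log2 values of 6.72, 6.66, 6.84 and 7.14 in knockouts 1 to 4, against 7.17, 7.21, 7.48 and 7.32 in controls 1 to 4. The groups did not overlap, but knockout 4 lay next to control 1. The difference was −0.45 ± 0.119 (SE, n = 4 each; limma, adjusted p = 0.387), and −0.39 without knockout 2.

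Olfr830, a proximal receptor, had log2 values of 5.18, 5.29, 5.97 and 5.77 in knockouts 1 to 4, against 6.09, 6.13, 6.26 and 6.18 in controls 1 to 4. Its controls were close together and its knockouts spread over a wider range, below all of them, with knockouts 1 and 2 the lowest. The difference was −0.61 ± 0.168 (SE, n = 4 each; limma, adjusted p = 0.434), and −0.53 without knockout 2. Its level is in the dimmest 30% of rows, as are those of Olfr901, Olfr866, Olfr919 and Olfr980. All 4 members without overlap, and the 2 with an unadjusted p below 0.01, were among the 63 dimmer members. Of the 47 brighter members, 0 met either rule. At an unadjusted p below 0.05, 7 of the 63 (11.1%) and 3 of the 47 (6.38%) were lower, against 3.06% of all rows and 14.1% of the other OR rows. Shares among dim and bright rows at large were not computed, so these counts cannot be read as particular to the members.

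A further 8 members were lower at an unadjusted p below 0.05. The first by p was Olfr945, which is described with its neighbours. Olfr895 had log2 values of 6.74, 6.66, 7.47 and 7.71 in the knockouts, against 8.01, 7.67, 7.77 and 7.87 in the controls, so that knockouts 1 and 2 lay far below and knockout 4 within the control range (difference −0.69 ± 0.231, SE; limma, adjusted p = 0.689). Olfr866 had 5.89, 5.57, 5.99 and 5.93 in the knockouts, against 6.08, 6.10, 6.44 and 6.12 in the controls, without overlap but by a narrow margin (difference −0.34 ± 0.118, SE; limma, adjusted p = 0.713). Olfr919, which like Olfr945 is of family MOR171, had 6.44, 5.98, 6.82 and 6.87 in the knockouts, against 7.15, 6.65, 7.45 and 7.43 in the controls, with control 2 below knockouts 3 and 4 (difference −0.64 ± 0.235, SE; limma, adjusted p = 0.749). Without knockout 2 the differences of these 3 genes were −0.52, −0.25 and −0.46. The other members below this threshold differed by −0.41 (Olfr829), −0.39 (Olfr979), −0.36 (Olfr976) and −0.31 (Olfr871). In Olfr980, the last member without overlap, the difference was −0.17.

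**Figure D4:**
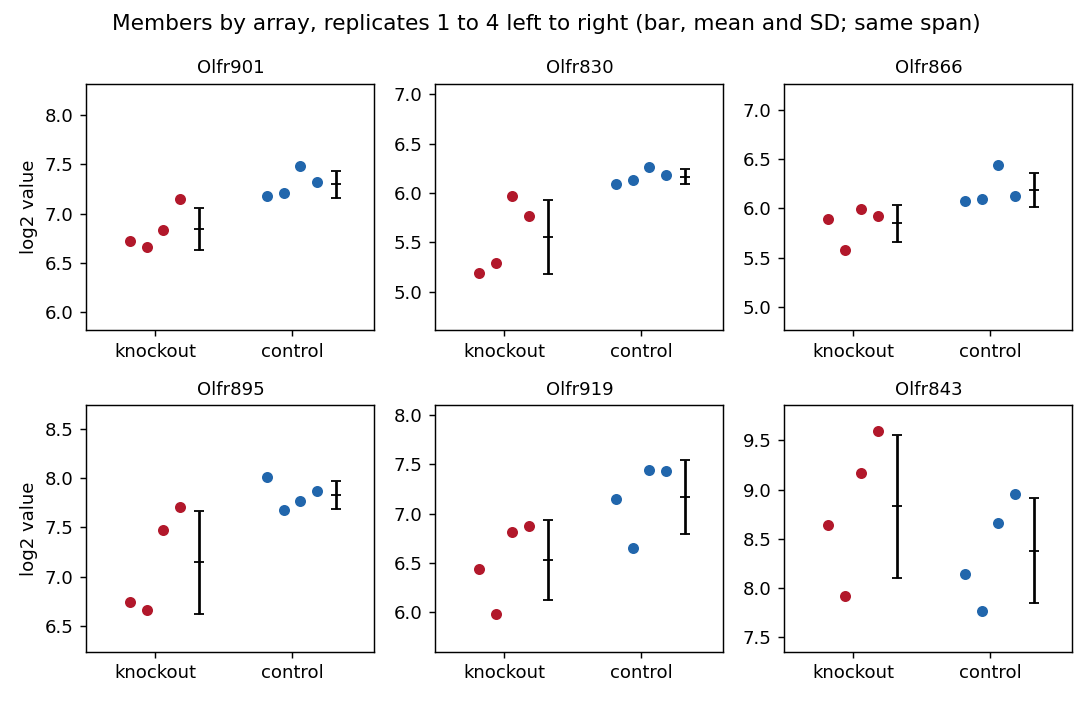
Log2 values of 6 members on each array, replicates 1 to 4 from left to right, knockouts left of controls, with the mean and SD as a bar; each panel spans the same range of log2 values. The knockouts of Olfr901, Olfr830 and Olfr866 lie below all controls, Olfr895 and Olfr919 overlap, and Olfr843 has a higher knockout mean with wide overlap.

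The most uneven stretch was a run of MOR171 genes in the distal cluster. Genes without a row of their own are left out of the order given here. In gene order, the differences were −0.53 for Olfr943, 0.46 for Olfr944, 0.89 for Olfr1537, −0.82 for Olfr945, 0.28 for Olfr947-ps1 and −0.26 for Olfr948. Without knockout 2 they were −0.23, 0.60, 0.97, −0.61, 0.56 and −0.03. With all samples, the run held both the member with the lowest and the member with the highest difference, and the 3 largest gaps between neighbouring members, which were 1.28 from Olfr944 to Olfr945, 1.10 from Olfr945 to Olfr947-ps1 and 0.987 from Olfr943 to Olfr944. The next gaps were on either side of Olfr843 in the proximal cluster, at 0.828 and 0.785. Without knockout 2, the gaps from Olfr944 to Olfr945 (1.21) and from Olfr945 to Olfr947-ps1 (1.17) were still the widest, but those beside Olfr843 (0.969 and 0.842) were wider than that from Olfr943 to Olfr944 (0.83). Across all 106 neighbouring pairs of members, the differences of neighbours correlated with r = −0.244 (−0.126 without knockout 2). This is across genes measured on the same 8 arrays, which are not independent.

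Olfr945 had log2 values of 7.99, 7.39, 8.29 and 8.45 in knockouts 1 to 4, against 8.59, 8.42, 9.07 and 9.32 in controls 1 to 4. All its knockouts but knockout 4 lay below all its controls, and knockout 4 lay just above control 2. The difference was −0.82 ± 0.265 (SE; limma, below 0.05 before adjustment and adjusted p = 0.66), a decrease of 43.3%, and was −0.61 without knockout 2. Within arrays 1 to 4 it was −0.81 and within arrays 5 to 8 −0.82.

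With all samples, Olfr944 was the only member higher at an unadjusted p below 0.05. It had log2 values of 9.32, 8.95, 9.44 and 9.80 in knockouts 1 to 4, against 8.83, 8.56, 9.05 and 9.22 in controls 1 to 4. Knockout 2, the lowest knockout, lay within the control range, and the others lay above it. The difference was 0.46 ± 0.195 (SE; limma, adjusted p = 0.801), 1.38-fold, and 0.60 without knockout 2.

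Olfr1537, the neighbour between them and not a member, had log2 values of 11.28, 11.20, 11.38 and 11.94 in knockouts 1 to 4, against 10.49, 10.30, 10.71 and 10.75 in controls 1 to 4. Its groups did not overlap. The difference was 0.89 ± 0.173 (SE; limma, adjusted p = 0.128), with 0.84 in arrays 1 to 4 and 0.93 in arrays 5 to 8. Its synonyms in the reference include Olfr144. Under that name the study lists it as significantly increased in these knockouts. That was before adjustment, as no receptor on that list passed the study's false discovery rate limit. The upstream windows of Olfr944 and Olfr1537 printed above are those with 4 motifs each, and that of Olfr945 holds none. Those windows of Olfr944 and Olfr1537 are 76.1% identical. Among other members, the window of Olfr843 (0.45) held none, that of Olfr866 (−0.34) held 1 TAATTA and 1 TAATTG, and that of Olfr830 (−0.61) held 1 TAATTA. Those of Olfr901 (−0.45) and Olfr895 (−0.69) held none. In Olfr843 and Olfr866 the annotated start is not an ATG. Over all members with a window, the median difference was −0.25 with such a motif and −0.23 without. Whether the motifs go with the direction of a difference was not tested. Whether probes of one of these related genes also bind the mRNA of another was not tested.

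**Figure D5:**
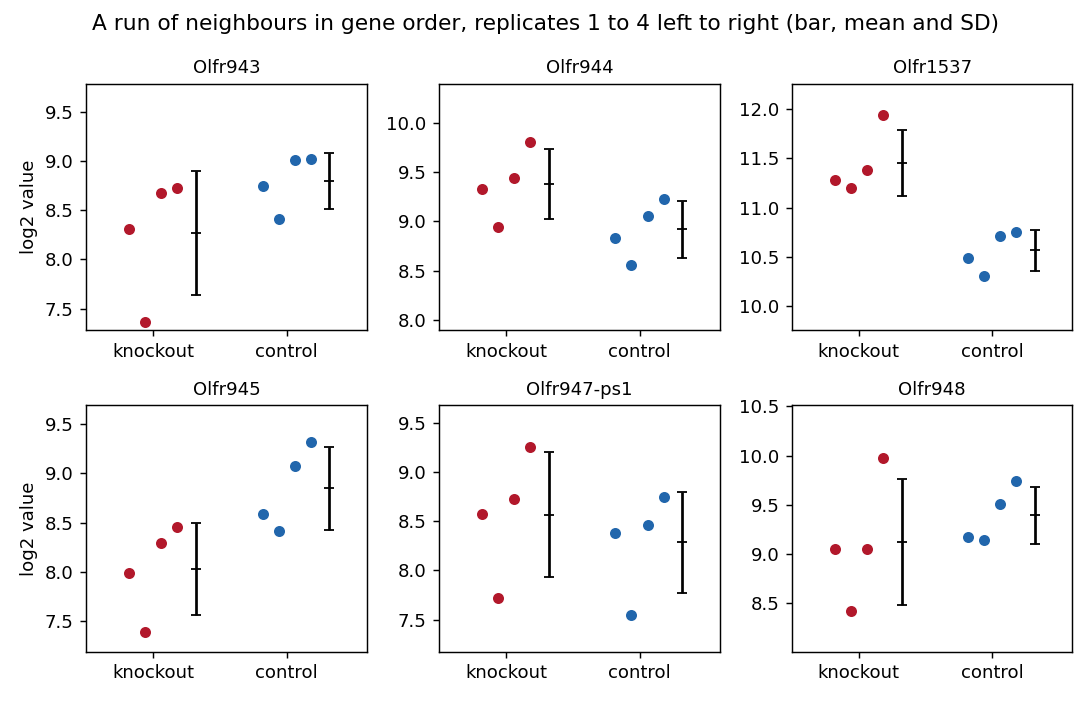
Log2 values on each array of 6 MOR171 genes, consecutive in gene order among the genes measured here. Replicates 1 to 4 run from left to right, knockouts left of controls, with the mean and SD as a bar. Olfr1537 is outside the number range. Knockouts lie above controls in Olfr1537, mostly above in Olfr944 and mostly below in Olfr945.

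Among the other members with differences above 0, Olfr843 of the proximal cluster had log2 values of 8.64, 7.92, 9.17 and 9.59 in the knockouts, against 8.14, 7.77, 8.66 and 8.95 in the controls (difference 0.45 ± 0.373, SE; limma, adjusted p = 0.993). Olfr947-ps1, named as a pseudogene, had 8.57, 7.72, 8.72 and 9.26 in the knockouts, against 8.38, 7.55, 8.46 and 8.74 in the controls (difference 0.28 ± 0.342, SE; limma, adjusted p above 0.99). In both, arrays 3 and 4 (knockout 2 and control 2) were the lowest of their groups, and the groups overlapped widely. Without knockout 2, Olfr843 differed by 0.75 and Olfr947-ps1 by 0.56 (limma, adjusted p = 0.469 and 0.541). Olfr891 differed by 0.11 (0.25 without knockout 2) and Olfr834 by 0.06 (0.098 without knockout 2), and the remaining 6 of the 11 by 0.06 or less. Olfr963 is among the study's in situ hybridisation probes, which were used on older mice than these. It differed by −0.10 ± 0.112 (SE, 95% interval −0.36 to 0.15), which is within the spread of the samples, and by −0.01 without knockout 2.

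With the array-number set as a term in the model, more members passed. The labels do not state these sets, and the same split separates the arrays by their mean over members, as described above. At an unadjusted p below 0.01, 16 members were lower and 1 (Olfr944) was higher, against 1.91% and 0.726% of all rows. The shares of the other OR rows were not computed for this fit. Its counts therefore cannot be read as particular to the members. After adjustment, 1 member, Olfr945, was lower (limma, adjusted p = 0.0371), against 0.47% of all rows. Olfr830 had an adjusted p of 0.0798 and Olfr901 of 0.0818 in that limma fit. The differences themselves were the same as without the term, since each set holds 2 knockouts and 2 controls.

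Some array rows list several receptors at once. The 6 rows that list a member together with other symbols differed by −0.05 to −0.54, the last in the row of Olfr150 and Olfr919, and by −0.37 to 0.18 without knockout 2, and are not counted among the 110. The 20 other OR rows on chromosome 9 outside the number range had a median difference of −0.28, with 16 below 0 (−0.07 and 13 without knockout 2). Of these, 0 were lower and 1, Olfr1537, was higher at an unadjusted p below 0.01. Olfr229 (−0.87), which has Olfr973 among its older names, Olfr250 (−0.70) and Olfr151, known as M71 (−0.59), had the largest differences below 0, with limma adjusted p-values of 0.618, 0.764 and 0.759.

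The controls were pooled over their genotypes, and the 123Cre:Emx2(fl/+) samples were set against the Emx2(fl/fl) samples to ask whether Cre with a single floxed allele changes these receptors. The members differed by a median of 0.16, with 91 of 110 above 0 and a range from −0.39 to 0.63. With limma, 0 members had an unadjusted p below 0.05, against 2.04% of all rows, and 0 an adjusted p below 0.05. The median difference of the knockouts was −0.32 against 123Cre:Emx2(fl/+) and −0.14 against Emx2(fl/fl), and these share the knockout samples. Without knockout 2 these medians were −0.16 and 0.0069. Both 123Cre:Emx2(fl/+) controls had high Xist (12.54 and 12.87) and both Emx2(fl/fl) controls low Xist (6.85 and 7.29), so genotype and sex cannot be told apart among the controls. Knockout 3 had 13.07, knockout 2 had 7.15, and knockouts 1 and 4 had intermediate values of 9.15 and 9.93.

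Genes of the cells around and along the OR pathway were read on the same arrays. Of 23 mature OSN genes, 19 were below 0 and 3 were lower at an unadjusted p below 0.01, namely S100a5, a calcium-binding protein (−0.52), Rtp2, a chaperone that carries ORs to the cell surface (−0.40), and Ano2, the chloride channel of OSN cilia (−0.35). Of all rows, 48.4% were below 0 and 1.3% were lower at that threshold. Of 17 immature OSN genes, 16 were below 0 and 1, the growth cone protein Gap43 (−0.23), was lower at that threshold. Of 23 genes of OR choice and trafficking, 21 were below 0 and 2, Emx2 and Rtp2, were lower, and Lhx2 differed by −0.0040. Rtp2, Rtp1 and Adcy3 are on both this list and the mature OSN list, so Rtp2 is counted in each. The medians of these 3 lists were −0.11, −0.11 and −0.08, against −0.23 for the members. Without knockout 2 they were −0.08, −0.15 and −0.05, against −0.08 for the members. After adjustment, Emx2 alone of these lists passed.

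Markers of other cells that the tissue can hold were counted in the same fit. Of 9 genes of respiratory ciliated cells, 8 were above 0 with a median of 0.23, and all 7 skeletal muscle genes were above 0 with a median of 0.10. Of 8 genes of olfactory bulb and brain, 6 were below 0 with a median of −0.27, and of 6 sustentacular cell genes 3 were below 0 with a median of 0.03. Without knockout 2 the medians of these 4 lists were 0.17, 0.14, −0.23 and 0.09. In these 4 lists 0 genes passed at an unadjusted p below 0.01. The mean over the respiratory list was 10.12 to 10.45 in knockouts and 10.02 to 10.20 in controls, over the muscle list 7.37 to 7.55 and 7.21 to 7.45, over the bulb and brain list 8.33 to 8.60 and 8.46 to 8.95, and over the sustentacular list 12.43 to 12.76 and 12.42 to 12.70. The part of these cells in the receptor values was not tested. Of 6 vomeronasal genes, 5 were below 0, and 1 passed, Calr4, a gene put on the list because its change in these arrays was known (−2.07, limma, adjusted p = 0.0095).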

How the data were processed

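Total RNA of each olfactory mucosa was labelled and hybridised to 1 array by the authors, who summarised the probe sets of each gene into 1 transcript cluster value. The values used are the log2 values that the authors deposited for 35557 rows. Affymetrix Expression Console is named in the submitters' processing notes, and the background correction and normalization were not given in any source used here. Groups and array numbers were taken from the labels.

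The members and gene lists were chosen with earlier results of these data known. The 23410 rows with a gene symbol (21789 with 1 symbol, 1621 with several) were tested together with limma 3.58.1 in R 4.3.3 (lmFit and eBayes, two-sided), with Benjamini-Hochberg adjustment over all of them, on 4 knockouts against 4 controls. The 12147 rows without a symbol were left out. A fit with 3 genotypes gave the contrast of the control genotypes. Medians and counts over members are descriptions. Values without knockout 2 leave out that 1 array. The scripts were tested on simulated data.

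The members named are, by rule, those with an unadjusted p below 0.01, up to 10 in each direction by largest difference, the 5 with the lowest p in a direction with fewer than 5, Olfr963, and up to 4 with an outlying sample. The rule also named pairs by protein identity, which was not analysed here. Olfr919, Olfr829, Olfr979, Olfr976, Olfr871, Olfr980, Olfr916, Olfr911-ps1 and the run from Olfr943 to Olfr948 were chosen after their values were seen. Upstream windows were read from RefSeq (GRCm38.p6), searched for motifs on both strands and aligned in pairs. Alternatives were quantile normalization, centring on 23 mature OSN genes or on the median of non-receptor genes, leaving out the dimmest 30% of rows, the methods' t-test, terms for array number or sex, array weights, each control genotype alone, each sample left out and each set of arrays alone, the last added after seeing the data. The number of arrays limits the precision.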

Additional observations from a re-analysis of the deposited data

Results flagged for a closer look

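Each member's 4 knockout values and 4 control values were examined for a sample that stood far from the other 3 of its group, as measured by its gap divided by the group's range against Dixon's critical value at the 95% level. Of 220 groups, 11 (5%) had such a sample, and chance alone flags about 1 in 20. In the knockouts 3 genes were affected, each by a low value in knockout 2, and in the controls 8, of which 6 were a low value in control 2. Olfr891 stood at a log2 value of 4.66 in knockout 2, below the other knockouts. Among the genes named, control 2 was the low sample in Olfr923 (8.34), Olfr826 (7.95) and Olfr922 (6.03). Olfr866 stood at 6.44 in control 3, above the other controls.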

How the results depend on the processing

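The median difference over members kept its sign under each alternative listed above. It ran from −0.39 in arrays 1 to 4 to −0.05 in arrays 5 to 8. With 1 sample left out, it ran from −0.35 without knockout 4 to −0.08 without knockout 2. Its sign changed, to 0.0069, against the Emx2(fl/fl) controls alone with knockout 2 also left out. The mean ran from −0.35 to −0.07 with 1 sample left out. The median was −0.25 after quantile normalization, −0.11 after centring on mature OSN genes, −0.09 with array weights, −0.18 with a sex term and −0.34 without the dimmest rows. The sex term placed knockouts 1 and 4, whose Xist was intermediate, with the samples of low Xist. Among the controls it was the same split as genotype. The count of 2 lower members at an unadjusted p below 0.01 was 0 by the methods' t-test, 6 after quantile normalization, 0 after centring on mature OSN genes, 0 of 47 without the dimmest rows, 16 with the array-number term, 1 with a sex term, 6 with array weights, 0 against either control genotype alone, 10 in arrays 1 to 4 and 7 in arrays 5 to 8, and 0 to 6 with 1 sample left out. The count of 0 higher members was 1 with mature OSN centring, with the array-number term and with array weights, and 0 to 1 with 1 sample left out (1 without knockout 2). Shares of all rows at this threshold are given above only for the main fit and the array-number term. The counts under the other settings therefore cannot be set against all rows. Shares of the other OR rows at this threshold are given only for the main fit. The count after adjustment was 1 with the array-number term and 0 with each sample left out. Olfr901 lost its unadjusted p below 0.01 in 9 of 20 alternatives and Olfr830 in 12 of 20. Olfr963 (−0.10) stood at 0.019 with mature OSN centring, 0.021 with array weights and at 0.10 in arrays 5 to 8. Olfr922 (−0.02) stood at 0.10 with mature OSN centring, array weights or the Emx2(fl/fl) controls alone, at 0.062 with a sex term, 0.14 in arrays 5 to 8, and from −0.14 without control 2 to 0.16 without knockout 2 with 1 sample left out (0.0069 without control 1, 0.012 without control 3, 0.029 without control 4). Olfr834 stood at −0.00016 without knockout 1 and Olfr891 at −0.078 in arrays 1 to 4. Where arms held 2 samples the spread was pooled over genes. The cause of these changes was not tested. No paired analysis was possible because the labels give no litter or pair, and the replicate numbers used here only name samples.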
